A study of Mus musculus with 5 samples.

Results

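Matrix metalloproteinases are zinc-dependent enzymes that cut collagens, gelatins, proteoglycans and many secreted proteins. They are made as inactive proenzymes, are switched on by other proteases, and are held in check by the tissue inhibitors of metalloproteinases (TIMPs), which block the active site. Neutrophils carry neutrophil collagenase (MMP8) and gelatinase B (MMP9) ready-made in their granules, while monocytes, macrophages and stromal cells make most other family members on demand. The genes described here are 10 listed members of both families, Mmp2, Mmp8, Mmp9, Mmp13, Mmp14, Mmp19, Mmp25, Timp1, Timp2 and Timp3. They were chosen by gene name, with earlier results of these data known. A probe set counted for a gene where the platform annotation gave that gene symbol alone, and 9 of the 10 were found, each with 1 probe set, out of 14807 genes in all. Mmp25, which encodes a membrane-anchored enzyme of leukocytes, is not analysed here.

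The RNA came from wild-type mouse lung, from which CD11b+Gr1+ cells were sorted, about 100000 a sample. CD11b is an integrin chain of myeloid cells and Gr1 an epitope of Ly6 proteins, so the gate holds neutrophils and monocytes together. In the tumour-challenged group (2 arrays) mice had received 5000000 LLC-RFP cells, a Lewis lung carcinoma line carrying a red fluorescent protein, under the skin, and lungs were taken 9 days later. The control group (3 arrays) was wild-type mice without tumour cells. Strain, sex and age are not given in the labels, nor is whether a sample came from 1 mouse or a pool, so p-values measure only the spread between these samples. The values are log2 expression values from RMA, 1 per array for each of 16661 probe sets, so a difference of 1 stands for a 2-fold change. A background level of 6.91 was set as the 95th percentile of 840 probe sets of odorant, vomeronasal, taste and trace-amine receptor genes. Levels are read only against this line and between arrays, not between genes.

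Itgam, which encodes CD11b, was above background on all arrays and averaged 10.96 ± 0.21 (SD, n = 2) in tumour-challenged samples and 10.77 ± 0.16 (SD, n = 3) in controls. Ly6g and Ly6c2 had no probe set of their own here. The array upper quartiles were 8.23 and 7.96 in tumour-challenged samples, against 7.90 to 8.09 in controls, so tumour-challenged replicate 1 was the brightest array and control replicate 3 the dimmest. The surfactant transcript Sftpc was also bright in this sort, between 12.20 and 12.28 in tumour-challenged samples and between 11.20 and 12.45 in controls. Of all 16661 probe sets, 0 had an adjusted p under 0.05 in either direction (0% higher and 0% lower, limma, Benjamini-Hochberg). The unadjusted p was under 0.05 for 597 that were higher and 493 that were lower. These counts depended on single arrays, with 1256 higher and 446 lower when tumour-challenged replicate 2 was left out, and 700 higher and 1008 lower when replicate 1 of that group was. No member could therefore be called changed, and what follows gives sizes, intervals and array order.

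Mmp8 and Mmp19 had the largest differences of the 9 genes, with Mmp8 at 2.04-fold and Mmp19 at 1.88-fold higher group means in tumour-challenged samples. Timp2, Timp3 and Mmp9 were 1.22-fold to 1.26-fold higher. Mmp2, Mmp13 and Mmp14 lay within 0.12 log2 of no difference. Timp1 differed by -0.41 log2 with all of its values below the background level, so no fold is given. For 4 of the 9 genes (Mmp8, Mmp9, Mmp19 and Timp2) both tumour-challenged arrays lay above every control array, which held for 11.2% of all probe sets. For 0 of the 9 did both lie below every control array, which held for 7.83% of all probe sets.

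**Figure D1:**
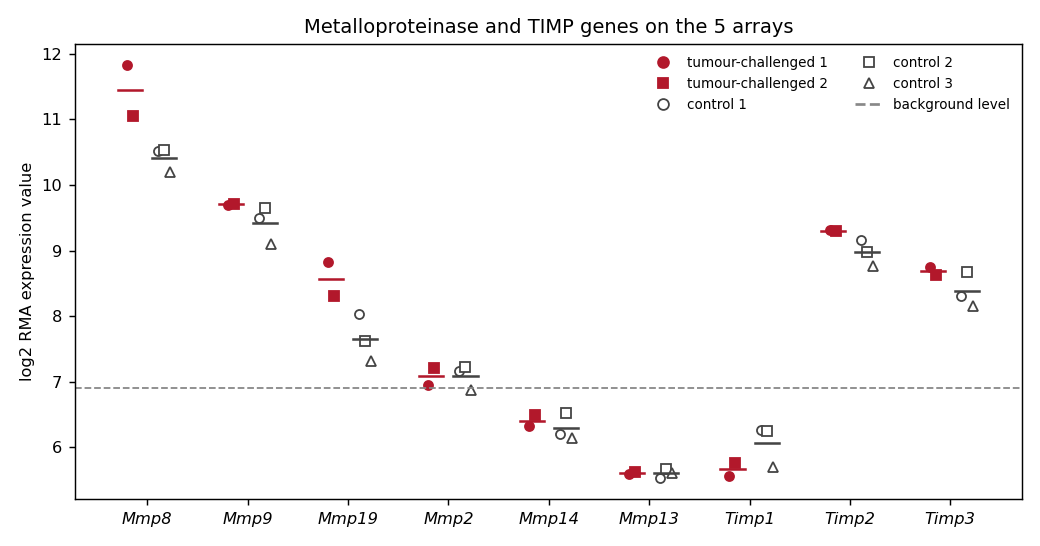
Log2 RMA expression value (vertical axis) of the 9 genes on each array, with tumour-challenged arrays filled on the left and control arrays open on the right of each gene. Short bars are group means and the dashed line is the background level of 6.91. Mmp8 lay between 11.06 and 11.83 in tumour-challenged samples and between 10.20 and 10.53 in controls, while Mmp13, Mmp14 and Timp1 stayed under the line.

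Mmp8 encodes neutrophil collagenase, which is packed into secondary granules late in neutrophil development and cuts fibrillar collagen. Its probe set (6986733) read 11.83 and 11.06 in tumour-challenged samples, against 10.52, 10.53 and 10.20 in controls. The groups did not overlap, and the lower tumour-challenged array stood 0.53 above the highest control. The tumour-challenged arrays were themselves 0.78 apart, more than the 0.33 that the controls spanned. The log2 difference was 1.03 ± 0.27 (SE), with a 95% confidence interval of 0.30 to 1.76 (limma, adjusted p = 0.668). Leaving out the higher tumour-challenged array, replicate 1, brought it to 0.64, and leaving out replicate 2 of that group brought it to 1.42. Mmp8 was the only one of the 9 genes past the 2-fold rule that the design text states, under which 0.144% of all probe sets were higher and 0.132% lower. It ranked 21 of 16661 by difference.

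The promoter windows of Mmp8, of Mmp13, a gene of the same cluster whose level stayed below background, and of Timp1, the gene with the largest negative difference, are shown for comparison. They are the RefSeq windows of build GRCm38.p6, from 250 bases before to 50 after the annotated start, on the gene's strand. Windows of 7 of the 10 listed genes were at hand. Capitals mark matches on either strand to a C/EBP motif (TTGCNNAA), an AP-1 motif (TGANTCA), an ETS core (GGAAGT) and a TATA motif (TATAA), a set chosen after the values and sequences had been seen.
Mmp8, chr9:7558179-7558478, plus strand: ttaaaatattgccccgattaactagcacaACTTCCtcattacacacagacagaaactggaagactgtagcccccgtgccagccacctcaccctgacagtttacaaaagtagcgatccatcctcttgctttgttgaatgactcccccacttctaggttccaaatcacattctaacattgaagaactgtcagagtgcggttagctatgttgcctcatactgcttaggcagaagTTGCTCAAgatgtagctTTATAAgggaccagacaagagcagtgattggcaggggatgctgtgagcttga
Mmp13, chr9:7272264-7272563, plus strand: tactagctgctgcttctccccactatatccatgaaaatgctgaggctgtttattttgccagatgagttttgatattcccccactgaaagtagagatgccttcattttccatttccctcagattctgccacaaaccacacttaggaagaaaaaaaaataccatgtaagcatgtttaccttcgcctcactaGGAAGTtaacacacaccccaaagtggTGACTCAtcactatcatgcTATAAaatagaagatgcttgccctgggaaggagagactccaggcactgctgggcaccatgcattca
Timp1, chrX:20869916-20870215, plus strand: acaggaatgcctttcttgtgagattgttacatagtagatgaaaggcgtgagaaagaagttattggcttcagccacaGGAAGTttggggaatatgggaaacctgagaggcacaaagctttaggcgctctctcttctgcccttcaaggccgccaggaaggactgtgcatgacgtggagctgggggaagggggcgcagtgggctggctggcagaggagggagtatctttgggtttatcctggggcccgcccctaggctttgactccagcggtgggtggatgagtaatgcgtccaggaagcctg

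The C/EBP motif occurred in the Mmp8 window, with its first base 19 bases before the annotated start, and in 10.8% of all 32851 windows of this length. The AP-1 motif occurred in the Mmp13 window, 35 bases before the start, and in 7.81% of all windows. Of the 7 windows at hand, an ETS core was found only in the 3 printed here, and it occurred in 23.8% of all windows. TATA matches, present in 24.9% of all windows, lay 16 bases before the annotated start of Mmp13 and across that of Mmp8, where matches on opposite strands overlap. Of the windows not printed, that of Timp3 held a TATA match 44 bases before the start. These are letter matches and were not measured as binding.

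Mmp8 sits in a cluster of 10 Mmp genes on chromosome 9. Of the 9 with a probe set, Mmp8 was the only one whose mean over the 5 arrays lay above background. The other 8 (Mmp13, Mmp12, Mmp1b, Mmp3, Mmp1a, Mmp10, Mmp20 and Mmp7) had values between 4.70 and 7.19, and their differences ran from -0.31 for Mmp12 to 0.14 for Mmp1b. Both groups overlapped for each of these 8, while 11.2% of all probe sets were higher and 7.83% lower without overlap. Mmp12, the macrophage elastase, read 6.81 and 6.57 in tumour-challenged samples, against 7.19, 6.73 and 7.09 in controls. It was above background on 2 control arrays only.

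**Figure D2:**
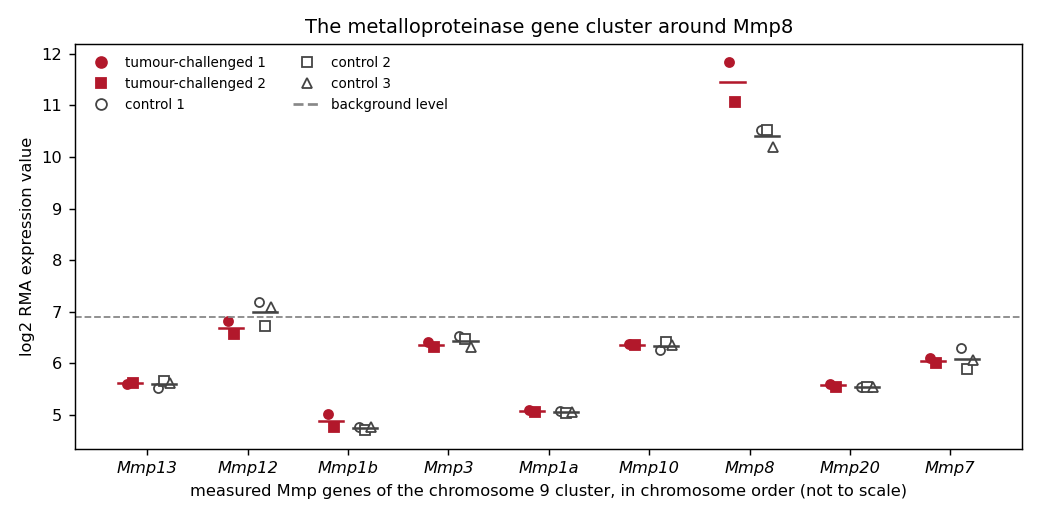
Log2 RMA expression value of the 9 measured Mmp genes of the chromosome 9 cluster, in the order of the genes along the chromosome, with tumour-challenged arrays filled on the left and control arrays open on the right. The dashed line is the background level of 6.91, and Mmp8 is the gene that lies above it on all 5 arrays.

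Mmp9 encodes gelatinase B, stored mainly in the tertiary granules of neutrophils and able to cut denatured and basement-membrane collagen. Its values were 9.69 and 9.72 in tumour-challenged samples, against 9.50, 9.65 and 9.10 in controls. The groups were separate by only 0.037 log2, and the low control replicate 3 set most of the difference. That difference was 0.29 ± 0.18 (SE, 95% confidence interval -0.21 to 0.78, limma adjusted p = 0.835), and it was 0.12 without control replicate 3. After quantile normalization the groups overlapped.

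The difference within each array between Mmp8 and Mmp9 sets the 2 granule enzymes side by side on the same arrays. It was 2.14 and 1.34 log2 in tumour-challenged samples, against 1.02, 0.87 and 1.10 in controls. The groups did not overlap, and the mean was 0.75 larger in tumour-challenged samples (exact permutation test, two-sided, p = 0.2). With 2 against 3 arrays this p is the smallest the test allows, so it cannot pass 0.05. Without tumour-challenged replicate 1 the mean was 0.35 larger, and without replicate 2 of that group 1.15 larger.

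Mmp19 encodes a secreted enzyme that cuts basement-membrane and other matrix proteins. It read 8.82 and 8.31 in tumour-challenged samples, against 8.03, 7.62 and 7.32 in controls. All 5 values were above background and the groups did not overlap, with a gap of 0.28 log2 between the nearest arrays. The controls spread over 0.71 log2, and the highest of them lay nearer to the lower tumour-challenged array than to control replicate 2. The difference was 0.91 ± 0.28 (SE), with a 95% confidence interval of 0.17 to 1.65 (limma adjusted p = 0.698). Leaving out single arrays gave 0.65 to 1.16. Mmp8 and Mmp19 were the members with an unadjusted p under 0.05 (0.016 and 0.026), 2 of 9 where 3.58% of all probe sets were so called higher and 2.96% lower, shares that move with single arrays as above.

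**Figure D3:**
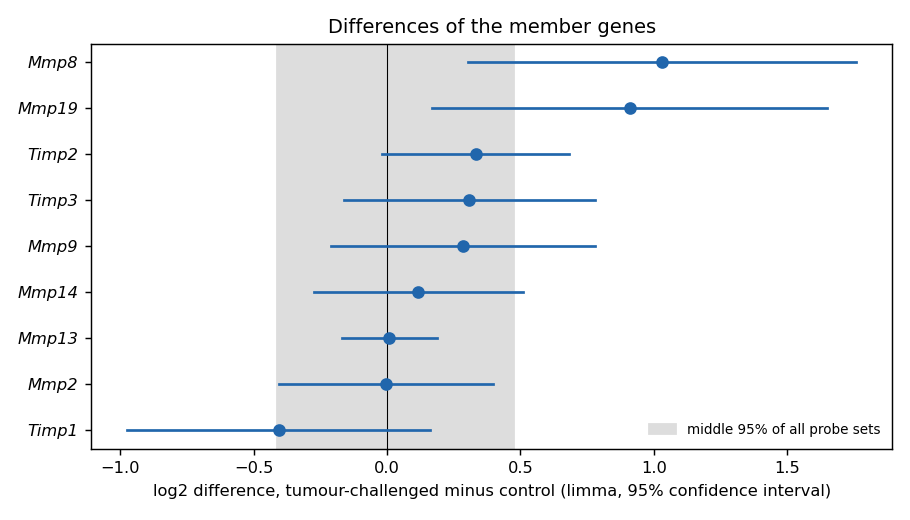
Log2 difference of each gene, tumour-challenged minus control, with its 95% confidence interval from limma. The grey band holds the middle 95% of the differences of all 16661 probe sets, from -0.41 to 0.47. Mmp8 and Mmp19 lie to its right with intervals that do not reach 0, and the other 7 intervals include 0.

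Mmp2, Mmp13 and Mmp14 gave little signal in this sort. Mmp2 encodes gelatinase A, a product mainly of stromal cells. Its values of 6.95 and 7.21 in tumour-challenged samples, against 7.16, 7.23 and 6.87 in controls, lay close to the background level, and the difference was -0.0045 (95% confidence interval -0.40 to 0.40, limma adjusted p = 1). Mmp14 encodes the membrane-bound enzyme that activates the MMP2 proenzyme. It read 6.33 and 6.49 in tumour-challenged samples, against 6.20, 6.53 and 6.15 in controls, all below background with overlapping groups. Mmp13, collagenase 3, was flat between 5.60 and 5.63 in tumour-challenged samples and between 5.53 and 5.67 in controls. Its interval of -0.17 to 0.19 is the narrowest of the 9, but a value under the background level gives only an upper bound on a transcript. Leaving out single arrays moved the Mmp14 difference of 0.12 between 0.038, without tumour-challenged replicate 2, and 0.24, without control replicate 2.

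Timp2 encodes the inhibitor that also takes part, with MMP14, in activating MMP2 at the cell surface. It read 9.32 and 9.29 in tumour-challenged samples, against 9.16, 8.98 and 8.77 in controls. The tumour-challenged arrays were nearly equal and stood 0.13 above the highest control. The difference was 0.33 ± 0.13 (SE), with a 95% confidence interval of -0.019 to 0.68 (limma adjusted p = 0.764), and 0.24 after quantile normalization.

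Timp3 encodes the inhibitor that stays bound to the matrix and also blocks several ADAM proteases. Its values were 8.75 and 8.62 in tumour-challenged samples, against 8.31, 8.67 and 8.16 in controls. Control replicate 2 lay between the tumour-challenged arrays, so the groups overlapped. The difference was 0.31 ± 0.18 (SE, 95% confidence interval -0.16 to 0.78, limma adjusted p = 0.822), and 0.46 without control replicate 2 against 0.20 without control replicate 3.

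Timp1 encodes the inhibitor that binds the MMP9 proenzyme and is inducible by cytokines in many cells. It read 5.56 and 5.77 in tumour-challenged samples, against 6.26, 6.24 and 5.71 in controls. All of these lie below the background level. Control replicate 3 fell between the tumour-challenged arrays, and the other 2 controls were higher than both. The difference was -0.41 ± 0.21 (SE, 95% confidence interval -0.97 to 0.16, limma adjusted p = 0.816), lower than that of all but 2.59% of probe sets, and -0.59 without control replicate 3. The groups no longer overlapped without that array, without tumour-challenged replicate 2, or with each array centred on its median. Groups separate more easily when an array is left out, and the matching share of all probe sets was not counted.

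**Figure D4:**
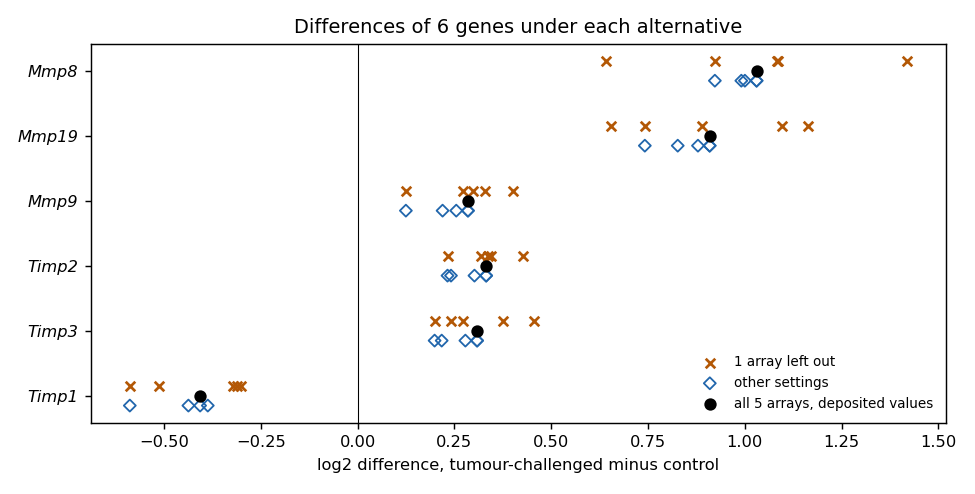
Log2 difference, tumour-challenged minus control, of the 6 genes with the largest differences. Filled circles are the values from all 5 arrays, crosses leave out 1 array each, and diamonds are the other settings (centring, quantile normalization, another variance model, a filter on dim probe sets where the gene passes it, and the replicate number as a block). Mmp8 ran from 0.64 to 1.42 and Timp1 from -0.59 to -0.30, and none of the 6 genes crossed 0. The variance model and the filter leave a difference as it is, and the block gave the differences found without control replicate 3.

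Over the 9 genes the median difference was 0.29 log2, beside 0.024 over all probe sets. It was 0.20 over the 6 Mmp genes and 0.31 over the 3 Timp genes. Control replicate 3 was the lowest array for 7 of the 9 (all but Mmp13 and Timp1), as it was for 36.3% of all probe sets. The highest array varied, with tumour-challenged replicate 1 highest for 4 of the 9 (Mmp8, Mmp19, Timp2 and Timp3) and for 33.7% of all probe sets. Without control replicate 3 the median was 0.12 over the 9, 0.085 over the Mmp genes and 0.20 over the Timp genes, and without control replicate 2 that of the Mmp genes was 0.32. After quantile normalization, which removes the differences between the arrays in overall brightness, the median was 0.22 over the 9 genes. It was 0.17 over the Mmp genes and 0.22 over the Timp genes, with Mmp8 at 0.99 and Mmp19 at 0.83. The part of array brightness in the members' differences was not tested.

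By the root mean square difference of their 5 values after each gene was centred on its mean, the genes nearest to Mmp8 among 14806 others were 0610009B22Rik (0.11 log2), Mmgt2 (0.12) and the platelet chemokine gene Ppbp (0.12). Ppbp read 10.09 and 8.98 in tumour-challenged samples, against 8.62, 8.74 and 8.23 in controls. Like Mmp8 it was highest in tumour-challenged replicate 1 and lowest in control replicate 3. Nearest to Mmp19 were Coa4 (0.077), Uxs1 (0.10) and the coagulation factor gene F10 (0.10). F10 read 10.86 and 10.61 in tumour-challenged samples, against 10.09, 9.62 and 9.39 in controls. None of these 6 genes passed the test either (limma adjusted p of 0.642 to 0.759). No correlation is given, since 5 arrays are too few.

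Other genes of the Mmp family lay at background. Of 16 listed, 14 were measured, and all 14 had means below the background level, with 7 positive and 7 negative differences and a median of 0.0050. For 0 of the 14 did the groups separate in either direction, while 11.2% of all probe sets were higher and 7.83% lower without overlap. After Mmp12, the largest differences were those of Mmp1b (0.14), Mmp23 (-0.078) and Mmp11 (0.075). Timp4, the fourth inhibitor, was nearly equal in the groups, at 7.28 ± 0.0071 (SD, n = 2) in tumour-challenged samples and 7.30 ± 0.24 (SD, n = 3) in controls.

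Among other inhibitors of matrix proteolysis, 8 of 10 listed were measured, with 4 positive and 3 negative differences and a median of 0.025. A2m read the same on all 5 arrays. Serpinb2, an inhibitor of urokinase-type plasminogen activator, read 6.37 and 6.61 in tumour-challenged samples, against 7.48, 7.53 and 7.79 in controls. Every tumour-challenged value lay below the background level and every control above it, a difference of -1.11 ± 0.14 (SE, limma adjusted p = 0.517). Slpi, an inhibitor of neutrophil elastase, differed by 0.27 and Thbs1, thrombospondin 1, by 0.26, both with overlapping groups. Reck, a membrane-anchored inhibitor of several metalloproteinases, differed by 0.16 from a level below background.

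Activators and binding partners of the enzymes had a median difference of 0.17 over 18 of 20 listed genes, with 12 positive and 6 negative. The arrays did not overlap for 6 that were higher, beside 11.2% of all probe sets, and 1 that was lower, Plau, beside 7.83%. Lcn2 encodes the lipocalin that binds MMP9 in a complex, and it read 10.81 and 10.46 in tumour-challenged samples, against 8.74, 9.02 and 9.12 in controls. The gap between its groups was wider than for any of the 9 members, and the difference was 1.67 ± 0.17 (SE, limma adjusted p = 0.517). S100a10, which with annexin A2 binds plasminogen activator at the cell surface, differed by 0.72 ± 0.19, and Prtn3, the granule protease proteinase 3, by 0.69 ± 0.10 from a control mean below background. Lrp1, the endocytic receptor that clears several of these proteases, differed by 0.52 with overlapping groups. Plau, which encodes urokinase-type plasminogen activator, differed by -0.23 with values near background, and its receptor gene Plaur by 0.14 with overlapping groups.

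Of the related Adam and Adamts proteases, 12 of 15 listed were measured, with a median difference of 0.052. Adam19 differed by 0.53 ± 0.17 (SE) and was the only one of the 12 higher without overlap, which held for 11.2% of all probe sets. Another 1 of the 12 was lower without overlap, which held for 7.83% of all probe sets. Adam10, Adam9 and Adam8 differed by 0.27, 0.22 and 0.19, all with overlapping groups. Of matrix substrates, 18 of 20 listed were measured, with 9 positive and 9 negative differences and a median of 0.0083. Versican, Vcan, differed by 2.23 ± 0.29 (SE), fibronectin, Fn1, by 0.65 ± 0.24, and the laminin chain gene Lamc1 by 0.46 ± 0.16, while decorin, Dcn, differed by 0.24 ± 0.10. In none of these 5 lists did a gene pass the test over all probe sets (limma, smallest adjusted p = 0.517).

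**Figure D5:**
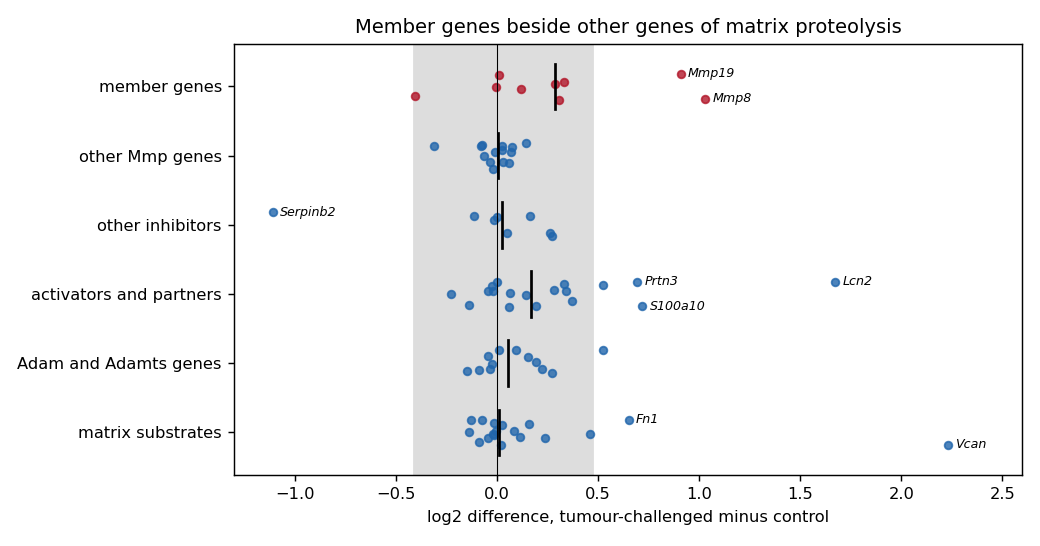
Log2 difference, tumour-challenged minus control, of each measured gene in the 9-gene group and in 5 lists of matrix proteolysis genes. Each point is a gene, vertical position within a row only separates points, black bars are list medians, the grey band is the middle 95% of all probe sets, and genes past 0.6 in either direction are named. The member median of 0.29 lies to the right of the medians of the 5 other lists drawn, which run from 0.0050 to 0.17. Members and lists were chosen with earlier results of these data known, so this order is only a description.

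RNA of the sorted cells is a bulk measurement, so a larger share of cells that carry a transcript and more transcript per cell cannot be told apart. Markers of the cells in the gate were read beside Mmp8. Of 13 neutrophil markers 11 were measured, all above background, and their mean log2 level was 10.68 and 10.55 in tumour-challenged samples, against 9.80 to 9.94 in controls. That list holds Mmp8 and Mmp9 themselves, and 7 of its genes had positive and 4 negative differences. Its granule genes Ngp and Ltf differed by 2.12 ± 0.18 and 1.83 ± 0.10 (SE, limma adjusted p of 0.517 and 0.495). S100a8, S100a9, Csf3r and Cxcr2 differed by -0.078, -0.083, -0.22 and -0.12. Of 8 monocyte markers 6 were measured, all above background, with a mean level of 11.30 and 10.71 in tumour-challenged samples, against 10.08 to 10.65 in controls. All 6 had positive differences, with Vcan the largest at 2.23, then F13a1 at 0.79 and Fn1 at 0.65. The receptor genes Ccr2, Csf1r and Cx3cr1 differed by 0.044, 0.068 and 0.082. The part of cell composition in the differences of Mmp8, Mmp9 and Mmp19 was not tested.

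Markers of cells outside the gate gave the following values, where a gene is named as dim if its mean over the 5 arrays lay below the background level. Platelet markers (4 of 4 measured, Itga2b dim) had a mean level of 8.23 and 7.56 in tumour-challenged samples, against 7.08 to 7.55 in controls. The chemokine genes Pf4 (with overlapping groups) and Ppbp differed by 1.10 and 1.00, but the glycoprotein genes Itga2b and Gp9 by 0.039 and -0.068. Erythroid markers (4 of 4 measured, with Alas2, Car2 and Klf1 dim) had 6.89 and 7.02 in tumour-challenged samples, against 6.09 to 6.49 in controls. Alas2 and Car2 lay above the background level on both tumour-challenged arrays and below it on all controls, and Klf1 lay below it on all 5 arrays. Epithelial markers (8 of 9 measured, Epcam dim) had 8.65 and 8.67 in tumour-challenged samples, against 8.04 to 8.71 in controls. For fibroblasts, a main source of Timp2, Timp3, Mmp2 and Mmp14 in tissue, 10 of 10 markers were measured. Their mean level was 7.09 and 7.26 in tumour-challenged samples, against 7.13 to 7.39 in controls, with Lum, Pdgfra, Pdgfrb and Fbln1 dim. Endothelial markers (7 of 7 measured, Kdr and Cldn5 dim) had a mean level of 7.60 on both tumour-challenged arrays, against 7.63 to 7.86 in controls. Alveolar macrophage markers (10 of 12 measured, Krt79 and Mmp12 dim) had 8.12 and 8.05 in tumour-challenged samples, against 8.26 to 8.33 in controls, a list that holds Mmp12. B-cell markers (4 of 5 measured) had 7.49 and 7.59 in tumour-challenged samples, against 7.96 to 8.21 in controls. Dendritic markers (5 of 5 measured, Xcr1 and Zbtb46 dim) had 7.44 and 6.98 in tumour-challenged samples, against 7.21 to 7.25 in controls. This mean joins opposite differences, 2 positive and 3 negative, with Flt3 at 1.27 and Clec9a at -1.17. The part of these other cells in the members' differences was not tested.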

How the data were processed

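The authors deposited log2 expression values. The submitters' processing notes name RMA, and the mouse build mm8 with no role. Of RMA's version and of filters nothing is given in the sources used here. RNA was amplified from picogram inputs per the labels' protocols. Of the 16661 probe sets, 14939 carry 1 gene symbol, 989 several and 733 none here. Of the single symbols, 14884 were matched by gene number and take the current symbol of that number. Equal values on 2 or more arrays occur in 19.6% of probe sets (none of the members), which narrows some spreads. Limma 3.58.1 (R 4.3.3) was fitted to all 5 arrays (two-sided tests, Benjamini-Hochberg adjustment across the whole table) and gave 1.36 prior beside 3 residual degrees of freedom; it was tested on simulated data. The number of arrays limits the precision. Python 3.11.15 was used for the rest. All members were named, with up to 4 genes per pathway list by size of difference. Those outside this, Timp4, A2m, Plau and Plaur, were added after their values were seen. Up to 2 genes were named per marker list, with S100a8, S100a9, Csf3r, Cxcr2, Ccr2, Csf1r, Cx3cr1, F13a1, Fn1, Itgam, Sftpc, Gp9 and dim genes added likewise. The 3 nearest profiles were named for members ranging over 1 log2 unit. Members and lists were chosen with earlier results of these data known. Alternatives were centring, quantile normalization, a trended robust variance, leaving out the dimmest 25% of probe sets, a replicate block, and leaving out each array.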

Additional observations from a re-analysis of the deposited data

How the results depend on the processing

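Under the 10 alternatives Mmp8, Mmp9, Mmp14, Mmp19, Timp2 and Timp3 kept a positive difference, and Timp1 a negative one under the 9 that could be run for it, since it and Mmp13 were among the dimmest 25%. No member passed the limma test under any of them (lowest adjusted p 0.211, for Mmp8). The variance model and the filter on dim probe sets leave each difference as it is, so they could not change a direction. Mmp13 was at -0.021 with arrays centred on their median. Leaving out single arrays gave -0.029 to 0.041 for Mmp13 and -0.14 to 0.13 for Mmp2, whose direction therefore has no meaning. Centring gave 1 probe set called higher by limma in place of 0, and 1 member lower without overlap (Timp1) in place of 0. Members higher without overlap numbered 3 after quantile normalization and 6 without control replicate 2, in place of 4. The matching share over all probe sets was not counted under these settings. Groups separate more easily when an array is left out, so counts with fewer arrays cannot be set against the 4. Leaving out single arrays gave 0 to 1 members lower without overlap, 17 to 57 probe sets over 2-fold higher (57 without tumour-challenged replicate 2) and 23 to 75 lower (75 without tumour-challenged replicate 1, 45 without control replicate 2). The background level is 5.23 at the median and 5.80 at the 75th percentile of the receptor probe sets, with 9 and 8 members above it in place of 6. With the replicate number as a block, limma called 0 higher and 0 lower, the member median was 0.12, Mmp8 0.92 and Mmp19 0.74. The block's differences equal those without control replicate 3, the only array with that number, so it is no separate check on direction. Deviations of same-numbered arrays correlated at 0.29 and 0.22, over only 2 pairs, so the numbers were not taken as pairing. Each member had 1 probe set, so another could not be tried.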
